A study of Mus musculus with 4 samples.

Results

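The fibroblast growth factor (FGF) ligands Fgf1, Fgf2, Fgf7, Fgf9, Fgf10 and Fgf18 and the receptors Fgfr1, Fgfr2, Fgfr3 and Fgfr4 were examined in host tissue at coated scaffolds. These 10 genes were chosen by gene symbol from the 19087 genes named on the array, and 5 of them had a log2 ratio on all 4 arrays. Male C57BL/6 mice 8 weeks of age carried porous scaffolds under the skin of the back for 7 days, with a collagen coating, a PMB coating or no coating. PMB is a bio-inert copolymer of 2-methacryloyloxyethyl phosphorylcholine (MPC) and n-butyl methacrylate, collagen is a coating to which cells attach, and the scaffold material is named polyethylene in the study's methods and polystyrene in the title of the series. Tissue close to the scaffold was cut out by laser, so each RNA extract held mixed cell types, and the experiment was done once, with 1 extract for each kind of scaffold.

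On every array a coated extract was hybridized together with the non-coated extract, which served as reference for both coatings. Cy5 labelled the coated extract in replicate 1, and Cy3 did so in replicate 2. Because both arrays of a coating hold the same extracts with dyes exchanged, they were treated as 1 replicate, so ± below is their SD (n = 2 arrays), a technical error, and no test between scaffolds can be made. Every value is log2 of coated over non-coated unless collagen over PMB is named, with the sign of replicate 2 turned. Before the sign was turned, the correlation between the arrays of a coating was -0.79 for collagen and -0.66 for PMB over 22380 entries, and 52.3% to 60.5% of the 43377 entries had a value on an array. An entry is a row of the deposited table. Several entries of a gene can be repeats of 1 probe and are not independent. Higher and lower counts include genes whose mean over both arrays reached 1 in either direction, which is 2-fold, without a change of sign between them. The ratios hold no absolute level, and a smaller number of cells of a type and less RNA per cell cannot be told apart in them.

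FGFs are secreted factors that bind heparan sulfate on the cell surface and in the matrix and activate receptor tyrosine kinases. Fgf7, known as keratinocyte growth factor, and Fgf10 are made by mesenchymal cells and act mainly on the epithelial splice form of Fgfr2. Fgf1 and Fgf2 are the classical acidic and basic FGFs and act on endothelial cells and fibroblasts. Fgf9 and Fgf18 act mainly on the mesenchymal splice forms of the receptors. In skin, FGFs are known for their part in wound closure, vessel growth and the hair cycle.

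The RefSeq promoters of Fgf7, Fgf10 and Fgf18 are shown because these are the 3 ligands with 4 values. Each of these ligands was past 2-fold in at least 1 comparison. With collagen over non-coated Fgf10 was higher and Fgf18 lower. Fgf7 reached 2-fold only in collagen over PMB, where it was higher. Each promoter holds 300 bases of the GRCm38.p6 genome, 250 before and 50 after the annotated start. Of the 10 members, 8 had a promoter in the table used. Fgf7 is at chr2:126034408-126034707 (plus strand), Fgf10 at chr13:118714449-118714748 (plus strand) and Fgf18 at chr11:33147351-33147650 (minus strand). Capitals mark matches to the CCAAT box (CCAAT), the GC box (GGGCGG), the TATA box (TATAAA) and the AP-1 site (TGANTCA), searched on both strands.
Fgf7: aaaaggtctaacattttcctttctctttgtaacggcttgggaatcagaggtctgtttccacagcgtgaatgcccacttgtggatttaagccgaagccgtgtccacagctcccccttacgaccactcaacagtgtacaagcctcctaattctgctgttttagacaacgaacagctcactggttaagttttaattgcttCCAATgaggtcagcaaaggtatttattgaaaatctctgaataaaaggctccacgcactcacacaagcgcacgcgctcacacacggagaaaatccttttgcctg
Fgf10: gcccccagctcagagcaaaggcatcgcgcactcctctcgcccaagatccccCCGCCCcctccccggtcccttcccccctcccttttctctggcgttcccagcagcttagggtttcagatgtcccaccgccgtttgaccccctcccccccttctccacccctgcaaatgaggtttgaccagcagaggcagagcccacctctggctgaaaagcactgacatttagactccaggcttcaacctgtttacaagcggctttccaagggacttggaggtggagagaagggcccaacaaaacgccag
Fgf18: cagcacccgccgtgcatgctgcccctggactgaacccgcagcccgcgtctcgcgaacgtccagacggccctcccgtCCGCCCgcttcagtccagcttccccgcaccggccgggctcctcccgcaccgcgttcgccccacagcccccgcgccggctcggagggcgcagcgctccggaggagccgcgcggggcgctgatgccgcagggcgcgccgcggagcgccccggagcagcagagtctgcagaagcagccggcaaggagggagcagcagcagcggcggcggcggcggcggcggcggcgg

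The Fgf7 window had 1 CCAAT match, at base 198 counted from its 5′ end, and the windows of Fgf10 and Fgf18 had 1 GC box each on the opposite strand, at bases 52 and 77. Of all 32851 promoters of this length, 37.4% held a CCAAT match, 35.7% a GC box, 13.6% a TATA box and 7.81% an AP-1 match, and the last pair of motifs was not found in these 3 windows. The windows differed in base composition. GC content was 45.7% for Fgf7, 60.7% for Fgf10 and 78.7% for Fgf18, against a median of 52.7%, and the number of CpG dinucleotides was 11, 10 and 47, against a median of 7. The matches describe these letters and were not linked to the ratios.

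Coverage differed widely among the 10 genes. Fgf7 and Fgf18 had 1 entry each and a value in 4 of 4 readings, Fgf10 had a value in 38 of 40 readings over 10 entries, and Fgfr1 in 46 of 52 readings over 13 entries. Fgfr4 had a value in 7 of 12 readings, Fgfr3 in 6 of 12, Fgf1 in 3 of 8 and Fgf9 in 1 of 8. Fgf2 and the receptor Fgfr2 had no value in any of their 44 readings each, over 11 entries each.
Such complete absence was shared by 43 of the 214 genes with at least 10 entries (20.1%). No source used here gives the criterion by which a spot was left empty, so an empty reading is not a measured low level. Of the 12 other FGF ligands listed, 11 had an entry and none had a value on all 4 arrays. Among them Fgf8, an FGF of embryonic patterning, had 10 values in 44 readings.

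**Figure D1:**
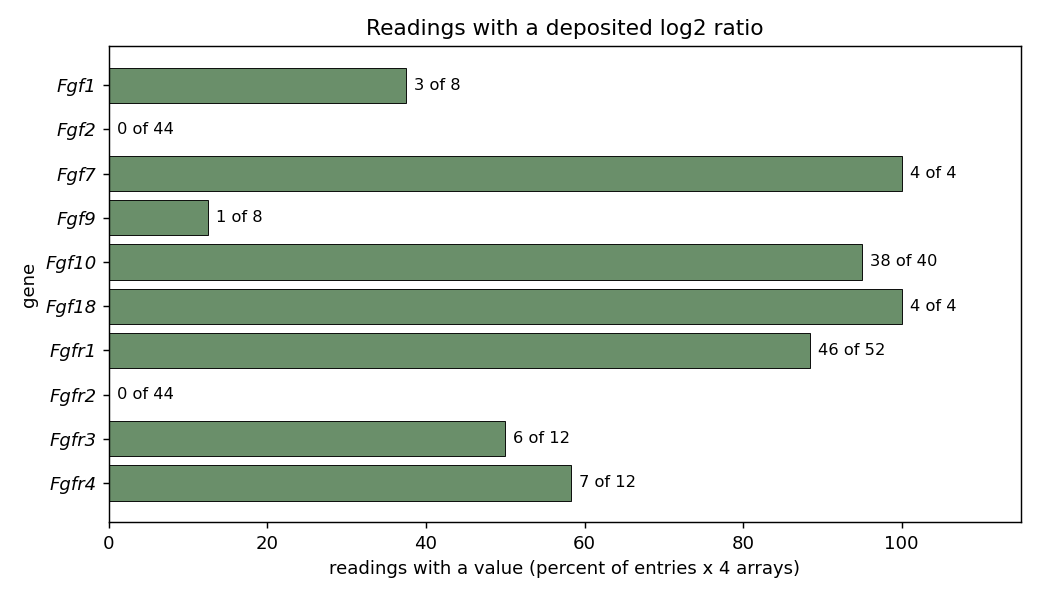
Percent of readings (entries of a gene times 4 arrays) with a deposited log2 ratio for the 10 FGF members, with the counts beside the bars. Fgf7 and Fgf18 were complete, and Fgf2 and Fgfr2 had 0 of 44 readings.

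At the collagen-coated scaffold Fgf10 was 2.59-fold higher and Fgf18 4.89-fold lower than at the non-coated scaffold, and Fgf7, Fgfr4 and Fgfr1 did not reach 2-fold. At the PMB-coated scaffold none of the 5 members with 4 values reached 2-fold in either direction. 1 of 5 members was thus higher and 1 lower with collagen, where 2.21% and 3.38% of all 11842 genes with 4 values were, and 0 of 5 were higher or lower with PMB, where 0.616% and 1.40% of all genes were. The median over the 5 members was 0.47 with collagen and -0.005 with PMB, and over all genes 0.04 and 0.02.

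**Figure D2:**
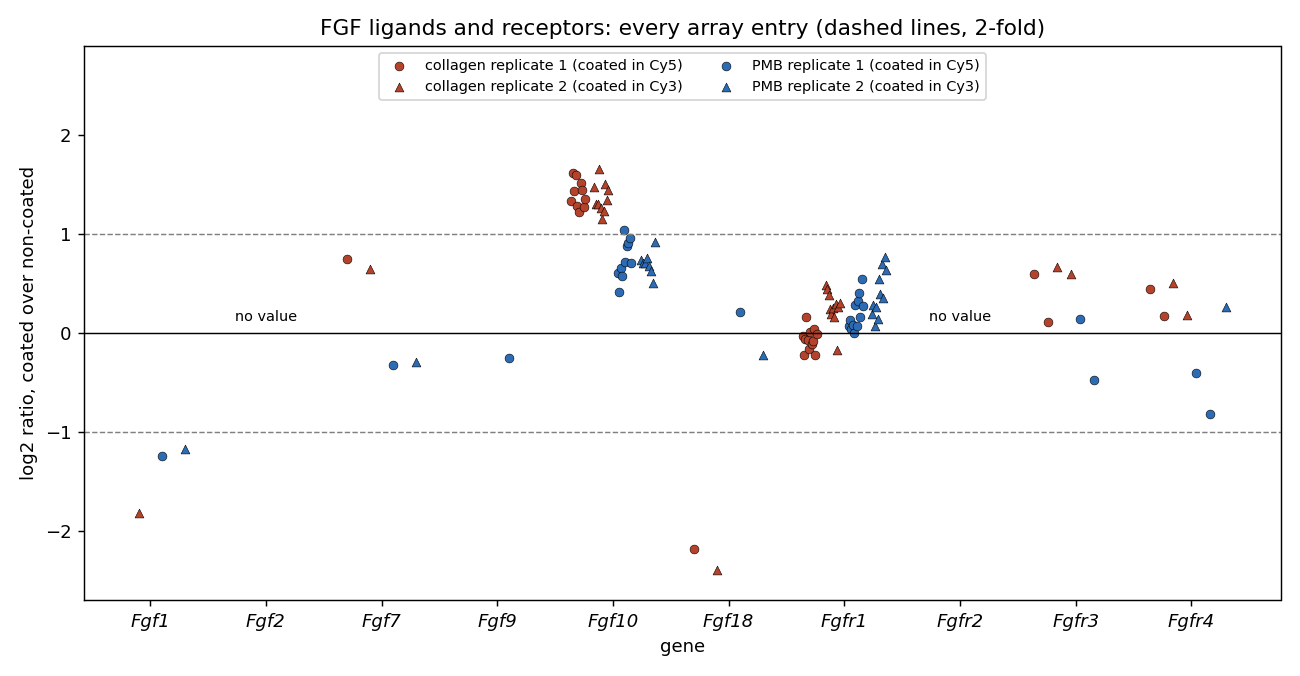
Log2 ratio of coated over non-coated for every entry of the 10 FGF members on every array. Red is collagen, blue is PMB, circles are replicate 1, triangles replicate 2, and the dashed lines mark 2-fold. All collagen readings of Fgf10 lie above 1 and both of Fgf18 below -2, while the PMB readings of Fgf18 lie on both sides of 0.

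Fgf10 (Entrez Gene 14165), a ligand for epithelial cells and a factor of limb, lung and fat development, was above 0 on every array. With collagen its gene value was 1.40 on replicate 1 and 1.34 on replicate 2, a mean of 1.37 ± 0.038. The 8 entries with 4 values ran from 1.22 to 1.61 on replicate 1 and from 1.15 to 1.51 on replicate 2, so that each of these entries was past 2-fold in both dye orientations.
With PMB the gene value was 0.73 on replicate 1 and 0.70 on replicate 2, a mean of 0.72 ± 0.020, or 1.64-fold. Entries ran from 0.41 to 0.96 on replicate 1 and from 0.51 to 0.92 on replicate 2, all above 0 and below 1. No PMB reading of these 8 entries overlapped a collagen reading. The entries can be repeats of 1 probe and were read on the same extracts, so this is not replication. The share of all genes with such a separation was not computed. The 2 further entries, without a value on PMB replicate 2, were at a mean of 1.63 and 1.27 with collagen and at 0.57 and 1.04 on PMB replicate 1.
The SD over the 8 entries was 0.091 with collagen and 0.080 with PMB, against a median SD of 0.068 and 0.145 over the 132 genes with at least 8 such entries. Only 1.00% of all genes had a higher collagen ratio and 2.24% a higher PMB ratio. The gene name rests on the platform annotation used here, and the study's tables use the name Fgf10 for a different entry, which the annotation names Cd44, so the values given here under this name are not those of the study's tables.

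Fgf7 (Entrez Gene 14178) had opposite signs with the 2 coatings. With collagen it was at 0.75 on replicate 1 and 0.65 on replicate 2, a mean of 0.70 ± 0.069, or 1.62-fold higher. With PMB it was at -0.32 and -0.30, a mean of -0.31 ± 0.018, or 1.24-fold lower. Neither mean reached 2-fold. The collagen ratio was above that of 95.5% of genes and the PMB ratio above that of 14.2%. Fgf7 rests on 1 entry, so no second probe was at hand.

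Fgf18 (Entrez Gene 14172), a ligand known from cartilage and bone growth and from the resting phase of the hair cycle, was the lowest of the 5 members with 4 values in the collagen comparison. With collagen it was at -2.19 on replicate 1 and -2.39 on replicate 2, a mean of -2.29 ± 0.15, and 80 of the 11842 genes were lower. With PMB it was at 0.22 on replicate 1 and -0.23 on replicate 2, a mean of -0.005 ± 0.31. The 2 PMB arrays lay on either side of 0, while the collagen arrays lay close together and far below both. This gene too rests on 1 entry.

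**Figure D3:**
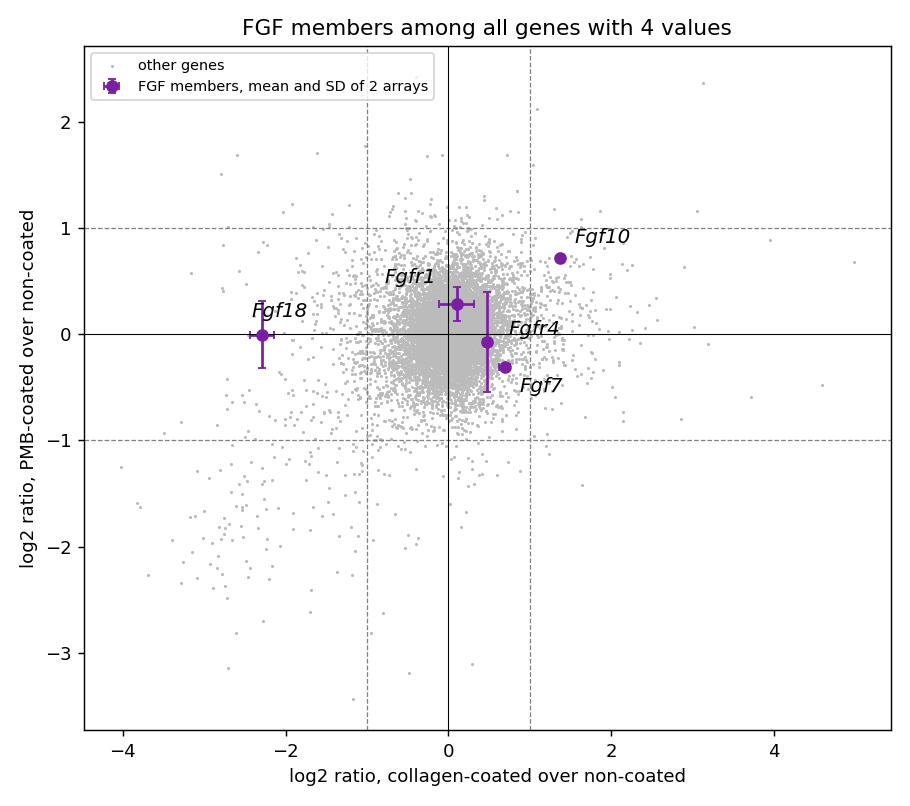
Mean log2 ratio of collagen-coated over non-coated (horizontal) against PMB-coated over non-coated (vertical) for all 11842 genes with 4 values (grey), with the 5 measured FGF members in purple. Error bars are the SD of 2 arrays and the dashed lines mark 2-fold. Fgf10 lies past 2-fold on the collagen axis at 1.37 and Fgf18 at -2.29. Both axes share the non-coated extract.

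The ligands that were measured in part gave few readings. Fgf1, whose product binds all FGF receptors, had a value for 1 of 2 entries on 3 arrays. With PMB it was at -1.24 on replicate 1 and -1.17 on replicate 2, a mean of -1.21 ± 0.047, or 2.31-fold lower. With collagen replicate 2 gave -1.82 and replicate 1 no value. All readings of Fgf1 were thus below -1. Where a value was required on both arrays of the coating compared only, 6 members could be counted with each coating. Of these, 1 was lower with PMB, Fgf1, against 1.52% of 11942 genes, and 0 were higher, against 0.678%. With collagen 1 was higher, Fgf10, against 2.68% of 12356 genes, and 1 lower, Fgf18, against 3.28%. Fgf9 had 1 reading, -0.25 on PMB replicate 1.

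With collagen, the receptor values were smaller in size than those of the ligands Fgf10 and Fgf18. Fgfr1 (Entrez Gene 14182), the main FGF receptor of mesenchymal cells, was at -0.05 on replicate 1 and 0.26 on replicate 2 with collagen, a mean of 0.10 ± 0.22. Its sign differed between the dye orientations, and in 10 of 11 entries replicate 2 was above replicate 1. With PMB it was at 0.17 and 0.40, a mean of 0.28 ± 0.16, again with replicate 2 above replicate 1 in 10 of 11 entries. All 11 entries had a mean above 0 with PMB, from 0.06 to 0.51, and 10 of 11 with collagen, from -0.13 to 0.23.
Fgfr4 (Entrez Gene 14186), a receptor of liver and, in mice, of regenerating muscle, was at 0.44 and 0.50 with collagen, a mean of 0.47 ± 0.041. With PMB it was at -0.41 and 0.26, a mean of -0.07 ± 0.47, so that the sign depended on the array. A second Fgfr4 entry was at 0.17 and 0.18 with collagen and at -0.82 on PMB replicate 1, with no value on PMB replicate 2. Both entries were above 0 with collagen and below 0 on PMB replicate 1.
Fgfr3, a receptor that restrains bone growth and is also made in epidermis, had 2 entries with collagen values. The first was at 0.59 and 0.67 and the other at 0.11 and 0.59. Their gene mean was 0.49 ± 0.20. On PMB replicate 1 the same entries were at 0.15 and -0.47, and PMB replicate 2 gave no value. No receptor with a value on both arrays of a coating reached 2-fold there.

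Between the coatings, Fgf18 was 4.87-fold lower and Fgf7 2.01-fold higher with the collagen coating than with PMB. The non-coated extract cancels in this difference, which was taken between arrays of the same dye orientation. 1 of 5 members was higher and 1 lower, where 2.74% and 3.67% of all genes were. Fgf18 differed by -2.40 in replicate 1 and -2.17 in replicate 2, a mean of -2.28 ± 0.17, and 40 of the 11842 genes had a lower difference. Fgf7 differed by 1.07 and 0.94, a mean of 1.01 ± 0.087. It stood at the threshold, which replicate 2 alone did not reach.
Fgf10 was higher with collagen in both replicates, by 0.67 and 0.64, a mean of 0.65 ± 0.018 that did not reach 2-fold, and in 8 of 8 entries, from 0.45 to 0.90. Fgfr4 differed by 0.85 and 0.24, a mean of 0.55 ± 0.43. Fgfr1 differed by -0.22 and -0.14, a mean of -0.18 ± 0.056, with 8 of 11 entries below 0 and 3 above. The dye-dependent shift seen in Fgfr1 against the reference was smaller in this comparison.

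Other genes of the FGF pathway were counted by list. Of 109 genes in 8 lists, 70 had a value on all 4 arrays. With collagen 1 of the 70 was higher (1.43%) and 5 were lower (7.14%), where 2.21% and 3.38% of all genes were. Of the lower genes, Flrt2, Sdc2 and Gpc3, given below, were short of 2-fold on replicate 2. With PMB 0 of the 70 were higher or lower, where 0.616% and 1.40% of all genes were. Between the coatings 1 was higher and 1 lower with collagen (1.43% each), where 2.74% and 3.67% of all genes were. These counts were not recomputed under other rules. The median of the 70 genes was -0.07 with collagen and -0.01 with PMB, and over all genes 0.04 and 0.02.

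Among the FGF homologous factors, which stay inside the cell and act on sodium channels, 1 of 4, Fgf11, was measured on all arrays. With collagen its arrays gave -1.29 and -1.11, a mean of -1.20 ± 0.12, and with PMB 0.34 and 0.23, a mean of 0.29 ± 0.082. Of 7 measured co-receptors and binding proteins, 1 was past 2-fold, Flrt2, a membrane protein of the family that binds FGF receptors and Unc5 receptors. It was at -1.16 and -0.86 with collagen, a mean of -1.01 ± 0.21, and at -0.12 ± 0.34 with PMB. The decoy-like receptor Fgfrl1, named after its values were seen, was at -0.15 ± 0.084 and 0.53 ± 0.55.

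Heparan sulfate carriers and enzymes showed values on both sides of 0. Of 10 measured heparan sulfate proteoglycans, 2 were lower with collagen, where 3.38% of all genes were. The syndecan Sdc2 was at -1.03 and -0.97, a mean at the threshold with an SD of 0.045, and at -0.33 ± 0.049 with PMB. The glypican Gpc3 was at -1.04 and -0.99, a mean of -1.01 ± 0.035, and at -0.18 ± 0.36 with PMB. Flrt2, Sdc2 and Gpc3 were each past 2-fold on replicate 1 and short of it on replicate 2. The 8 other proteoglycans lay between 2-fold lower and 2-fold higher with either coating.
Of 14 measured enzymes that build or trim heparan sulfate, 0 reached 2-fold with either coating. The collagen arrays gave 0.61 and 0.34 for Hs6st2, a sulfotransferase, and the PMB arrays -0.84 and -0.65. The collagen over PMB value was 1.45 in replicate 1 and 0.99 in replicate 2, a mean of 1.22 ± 0.33, and Hs6st2 was the only enzyme past 2-fold in that comparison.

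Downstream of the receptors, of 17 measured signal transducers none reached 2-fold, with medians of 0.0045 with collagen and 0.055 with PMB and values from -0.39 to 0.52 with collagen. Of 9 measured feedback inhibitors 1 was past 2-fold. Spry3, a Sprouty protein, was at 1.20 and 1.25 with collagen, a mean of 1.23 ± 0.037, and at 0.45 ± 0.11 with PMB. Other feedback genes, named here after their values were seen, did not reach 2-fold. With collagen Spred2 was the lowest of the 9 at -0.73 ± 0.0046, and Spry2 was at -0.60 ± 0.31 and Spry4 at -0.35 ± 0.48. Spry1 was at 0.001 ± 0.55 and the phosphatase Dusp6 at 0.36 ± 0.26. With PMB Spred2 was at -0.265 ± 0.17, Spry2 at -0.06 ± 0.11 and Spry4 at -0.42 ± 0.83. Spry1 was at 0.26 ± 0.38 and Dusp6 at 0.26 ± 0.32 there.
Of 12 measured FGF-responsive transcription factors and growth genes, 1 was lower with collagen. Fos, an immediate-early gene that many stimuli switch on, was at -1.04 and -1.12, a mean of -1.08 ± 0.059 over 10 entries, and at -0.41 ± 0.093 with PMB. The ETS factors Etv4 and Etv5, textbook targets of FGF signalling also named after their values were seen, had collagen values of 0.67 ± 0.42 and -0.50 ± 0.40 and PMB values of -0.32 ± 0.27 and -0.39 ± 0.0042. The list medians were -0.22 with collagen and -0.29 with PMB.

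**Figure D4:**
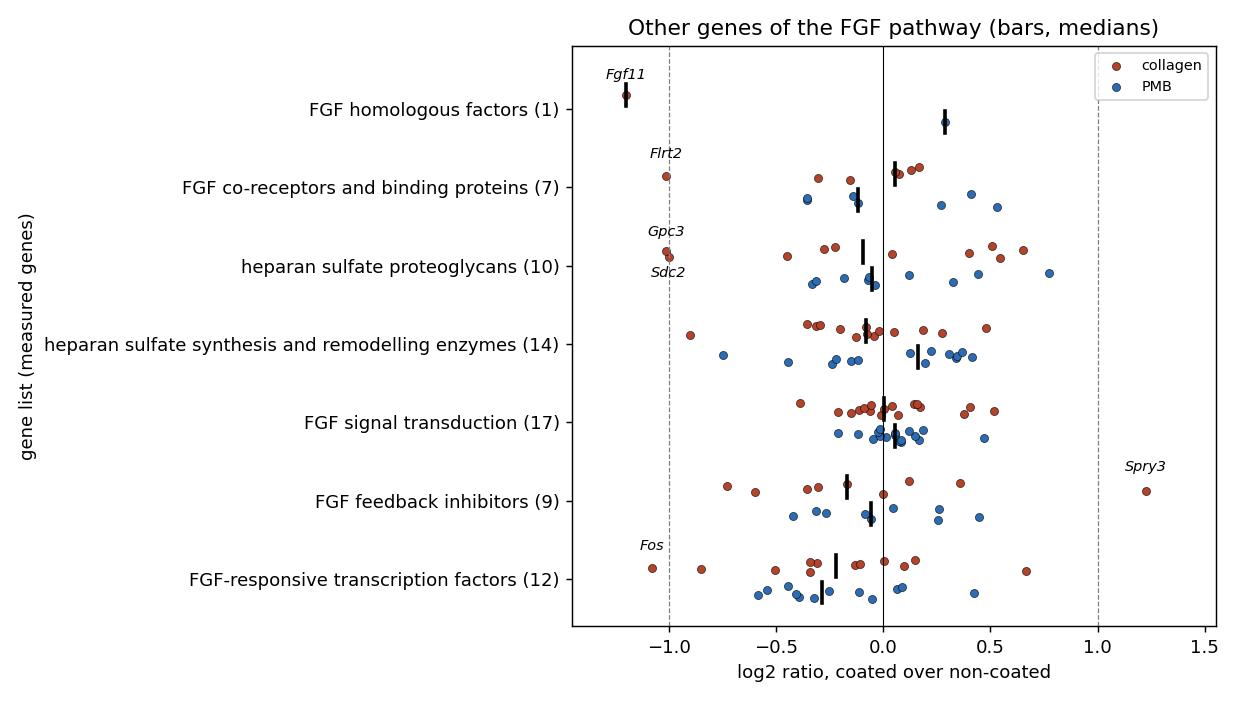
Mean log2 ratio of coated over non-coated for 70 measured genes of the FGF pathway, by gene list, with the number of measured genes in brackets. Red points are collagen and blue points PMB, black bars are list medians, dashed lines mark 2-fold, and genes past 2-fold are named. With PMB no gene lies past a dashed line, and with collagen Spry3 lies above and Fgf11, Flrt2, Gpc3, Sdc2 and Fos below.

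Cell type markers differed beside these genes, and their part in the FGF values was not tested. For the marker counts, the share of all genes was 2.21% higher and 3.38% lower with collagen. With PMB it was 0.616% higher and 1.40% lower. All 9 skeletal muscle markers were lower with both coatings, with medians of -3.01 with collagen and -1.94 with PMB and Ckm at -3.39 ± 0.21 and -1.94 ± 0.11. The readings of Fgf1 were below -1 with PMB and, on replicate 2 alone, with collagen, where replicate 1 gave no value. Those of Fgf18 were below -1 with collagen only. Of 4 measured Schwann cell markers, 2 were lower with collagen, with a median of -0.99, and 0 with PMB, with a median of 0.53. Mbp, a myelin protein, was at -2.57 ± 0.031 and 0.60 ± 0.041.
Fibroblast markers, which mark the usual source of Fgf7 and Fgf10, had a median of 0.05 with collagen and 0.38 with PMB over 10 genes, with 5 of 10 above 0 with collagen and 10 of 10 with PMB. With collagen they ran from -0.95 to 1.01, and 1 was past 2-fold, Pdgfrb at 1.01 ± 0.14, which was short of it on replicate 2 at 0.91. Of 4 measured keratinocyte markers 3 were higher with collagen, with a median of 1.37, among them Sfn at 1.18 but not Krt10 at -0.02, while the list's other 6 genes, Krt5 and Krt14 among them, had no value on all 4 arrays. Of 4 measured T cell markers 2 were higher with collagen, with a median of 1.29 and Cd3d at 1.86 ± 0.19. These 4 ran from -0.32 to 2.14 with collagen, and 3 of 4 were above 0. Blood endothelial markers were all above 0, with medians of 0.86 with collagen and 0.27 with PMB over 9 genes, and none reached 2-fold. Adipocyte markers were higher with PMB in 6 of 8 genes, with a median of 1.18 against -0.70 with collagen, and Adipoq was at 1.20 ± 0.053 and -0.67 ± 0.047.
Of 5 measured myogenic precursor markers 3 were lower with collagen and 4 with PMB, with medians of -1.18 and -1.82. Smooth muscle and pericyte markers had medians of 0.17 and 0.10 over 8 genes, with 1 higher and 1 lower with collagen and 1 lower with PMB. Pan-macrophage markers had medians of -0.10 and -0.12 over 6 genes, and 0 of the 6 reached 2-fold. As only ratios were deposited, the summed level of these markers in each extract is not known.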

How the data were processed

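Agilent whole mouse genome oligo microarrays with 2 colours were used, loaded with 825 ng of amplified RNA per dye. The authors scanned each array at several gains, quantified spots with GenePix Pro and normalized Cy3 and Cy5 by LOWESS. The deposited values are log2 ratios of Cy5 to Cy3 for 4 arrays. No source used here gives how the scans were combined or which spots were left empty. LOWESS centres each array, so a shift common to all genes cannot be seen.

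The sign of replicate 2 was turned and both arrays of a coating averaged as 1 replicate. Symbols came from the platform annotation, updated through Entrez Gene IDs (33515 of 33651 entries with 1 symbol matched, 56 entries had several symbols and 9670 were not named). Entries with 4 values were averaged for each gene. The rule was a mean of at least 1 in size with 1 sign on both arrays. All members are named, with pathway genes past this rule; exceptions are stated. Of each marker list, genes were named from the first measured 3 in list order. The members and lists were chosen with earlier results of these data known. The calling step was run on simulated data. There the dye differences cancelled in the mean, so this run checked neither the error rate of the rule nor the sign turn of replicate 2. Alternatives were single arrays, centring, scaling, the summary over entries, the filter and the threshold. Python 3.11.15, pandas 2.3.3, numpy 2.4.6 and matplotlib 3.10.9 were used. Sequences are from RefSeq, GRCm38.p6.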

Additional observations from a re-analysis of the deposited data

Results flagged for a closer look

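Fgf7, Fgf11 and Hs6st2 lay on opposite sides of 0 with the 2 coatings, in both arrays of each coating. Only the members and the pathway genes past 2-fold in at least 1 comparison were searched for this pattern. It is not particular to them, as pathway genes short of 2-fold showed it too, among them Etv4, Fgfrl1 and Sulf2. The share of all genes with this pattern was not computed. The differences between the coatings were not tested, since each coating has 1 extract. Fgf7 was above 0 with collagen and below 0 with PMB, with a collagen over PMB log2 ratio of 1.01 ± 0.087. Hs6st2 followed the same order at 1.22 ± 0.33. Fgf11 was below 0 with collagen and above 0 with PMB, at -1.49 ± 0.21. All other members with 4 values either had 1 sign on all arrays, as Fgf10, or changed sign between the arrays of a coating, as Fgf18, Fgfr1 and Fgfr4.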

How the results depend on the processing

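The numbers of members at least 2-fold higher or lower were recomputed under 9 alternatives. With collagen, 1 member stayed higher and 1 lower under all of them except the 1.5-fold threshold, where Fgf7 joined Fgf10 and 2 were higher. With PMB, the 1.5-fold threshold gave 1 higher member, Fgf10, and entries with a value on both arrays of the coating gave 1 lower member, Fgf1, where the main rule gave 0. For collagen over PMB the number higher was 0 when each array had to reach 2-fold and 2 with the 1.5-fold threshold, and it ran from 0 to 1 when replicate 1 or replicate 2 was left out. Without replicate 1, Fgf7 was at 0.94. The number lower was 1 throughout, always Fgf18, which ran from -2.39 to -2.19 with collagen. Fgf10 ran from 1.19 to 1.40 with collagen, and the lowest value came from the entry with the smallest dye difference. The 105 recomputed values include those of ratios short of 2-fold. No ratio past 2-fold in its own comparison changed sign. Leaving out an array could not change such a sign, since the rule requires 1 sign on both arrays. Fgf7 and Fgf18 have 1 entry each, so the summary over entries and the filter could not change their values. Fgfr1 with collagen ran from -0.13 to 0.26, Fgf18 with PMB from -0.23 to 0.22 and Fgfr4 with PMB from -0.41 to 0.26, so these have no settled sign. No paired analysis was possible because each coating has 1 extract and no test was run. Signal over background was not known for any entry.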
